A study of Saccharomyces cerevisiae BY4741 with 238 samples.

Results

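Transcript levels of 9 genes of calcineurin signalling and calcium transport were followed across drug treatments of budding yeast (Saccharomyces cerevisiae). The genes were chosen by name, as the calcineurin subunits, their transcription factor, their regulators and a kinase and pumps tied to the pathway. The rule uses no measured value, but it was written with earlier results of these data known. They are CNA1, CMP2, CNB1, CRZ1, RCN1, RCN2, CMK2, PMC1 and PMR1, 9 of the 6717 features in the expression table. All 9 had a mean value of at least 10 and were among the 5015 features tested.

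The table holds 238 libraries of polyadenylated RNA, each from 1 well of the haploid MATa laboratory strain BY4741 grown in YPD, a rich medium. Cultures received cycloheximide, which blocks translation elongation, LiCl, a toxic salt, myriocin, which blocks the first step of sphingolipid synthesis, or rapamycin, which inhibits the TORC1 kinase, alone or in pairs. The 6 drug pairs were run as 6 experiments in 2-drug concentration grids, with robotic re-inoculation, and wells were sampled after their growth rate had been measured. The comparisons ask how the response to a mixture relates to the responses to its single drugs at like growth inhibition.

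There were 11 drug-free cultures, with a relative growth rate of 1.02 ± 0.0371 (SD). Single-drug cultures with a relative growth of 0.35 to 0.66 are called matched. They numbered 10 for cycloheximide (0.0522 to 0.0764 µg/ml), 10 for LiCl (9240 to 15700 µg/ml), 11 for myriocin (0.349 to 0.51 µg/ml) and 11 for rapamycin (0.00396 to 0.00662 µg/ml). A further 13, 18, 14 and 19 single-drug cultures, in the same order, lay outside that window and formed concentration gradients. Mixtures numbered 22 for cycloheximide with LiCl, 20 for cycloheximide with myriocin, 19 for cycloheximide with rapamycin, 26 for LiCl with myriocin, 18 for LiCl with rapamycin and 16 for myriocin with rapamycin. Wells are separate cultures, but the labels do not say whether they came from independent overnight cultures, so p-values measure the spread between wells.

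Calcineurin is a phosphatase that calcium and calmodulin switch on. In yeast it dephosphorylates the transcription factor Crz1, which then enters the nucleus and raises transcription of genes for calcium pumps and cell wall synthesis, and of feedback regulators of calcineurin itself. Cytosolic calcium is kept low by the vacuolar pump Pmc1 and the Golgi pump Pmr1. RCN1, CMK2 and PMC1 are known targets of this route. The members are described by role, from the phosphatase to the pumps.

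The median estimated depth was 568842 reads (lowest 64843, highest 2017612), and 8 libraries were below a share of 0.25 of that median. Within each experiment the wells formed a lower and a higher growth set, told apart by absolute growth rate per unit of relative growth. All mixture cultures belong to the higher set. The 3 drug-free cultures of the higher set ended at an optical density (OD600) of 1.377 to 1.4365, against 0.553 to 0.7805 for the other 8, so that among drug-free cultures the set and the density cannot be told apart. BY4741 is MATa, and the MATa markers MFA1, MFA2, STE2 and BAR1 had mean values of 221, 150, 122 and 23. Of the MATalpha markers, MF(ALPHA)1 and STE3 had means of 0.285 and 1.26. MF(ALPHA)2, at 9.78, was not absent. LEU2, MET17 and URA3, which the strain lacks, each had a mean of 0.0791, while HIS3, which carries an internal deletion, had a mean of 16.5. In the cycloheximide-myriocin experiment the 2 drug-free cultures had the lowest RCN1 values of all 11, and its only matched cycloheximide culture (replicate 1) had the highest RCN1 of that drug. The single-drug myriocin cultures of the myriocin-rapamycin experiment, matched or not, also stood apart from the other single-drug myriocin cultures. Where a call changes without replicate 1 or without those myriocin cultures, the value without them is given as well; both omissions were chosen after seeing the data.

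The genes of the calcineurin subunits did not pass the test under any single drug at matched growth, and neither did CRZ1 by the test across all libraries. CNB1 and CRZ1 passed in some settings with libraries left out. A change was called at an adjusted p under 0.05 (limma, Benjamini-Hochberg over all 5015 features) and at least 1.5-fold. Log2 changes are on the log2(value + 1) scale and given with their standard error (SE). Those from the fit across all libraries are adjusted for experiment and growth set. They can therefore differ from the ratio of the plain means. Values are the deposited normalised values, which are not divided by gene length, so levels are compared between conditions and not between genes.

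CNA1 (chromosome XII, 1004347 to 1006008, minus strand, build R64) and CMP2 (chromosome XIII, 160180 to 161994, plus strand) encode the alternative catalytic subunits. CNA1 ran from 16 to 36.5 with a median of 19.7 in drug-free cultures and from 22.5 to 36.9 with a median of 30.5 under LiCl. The ranges overlapped, and the log2 change was 0.37 ± 0.17 (adjusted p = 0.104). CMP2 ran from 73.2 to 113 with a median of 83.3 without drug and from 79.4 to 116 with a median of 107 under myriocin, and its log2 changes against drug-free cultures lay between -0.11 and 0.07 for the 4 drugs.

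CNB1 (chromosome XI, 82947 to 83550, plus strand) encodes the regulatory subunit that binds calcium. Its drug-free values ran from 36.9 to 70.2 with a median of 54.3, and its myriocin values from 44.2 to 87 with a median of 72.2. Of the 11 myriocin cultures, 6 lay above the highest drug-free culture. The log2 change was 0.50 ± 0.15 (adjusted p = 0.00849), under the 1.5-fold limit. Without the myriocin cultures of the myriocin-rapamycin experiment, an alternative chosen after the data were seen, it was 0.77 and was called.

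CRZ1 (chromosome XIV, 579580 to 581616, plus strand) encodes the transcription factor. Drug-free values ran from 39.6 to 93.1 with a median of 61.3, rapamycin values from 39.7 to 93.9 with a median of 42.1 and myriocin values from 31.4 to 121 with a median of 61.4. All ranges overlapped. The log2 change was -0.50 ± 0.17 under cycloheximide and -0.52 ± 0.16 under rapamycin, both with an adjusted p under 0.05 and under 1.5-fold (0.0407 and 0.0125). Without cycloheximide replicate 1 the cycloheximide change was -0.64 (adjusted p = 0.0104) and was called, and without the libraries of low depth the rapamycin change was -0.69 (adjusted p = 0.000517) and was called. In the higher growth set alone both were called, at -0.95 and -0.98 (adjusted p = 0.0212 and 0.0241), while in the lower set alone they were -0.22 and -0.18 and not called (adjusted p = 0.718 and 0.686). In the 3 drug-free cultures of high density CRZ1 was 73.9 to 93.1, against 39.6 to 72.9 in the other 8. With final OD600 as a term the changes were -0.48 and -0.49 (adjusted p = 0.0557 and 0.0227), and without the 3 dense drug-free cultures they were -0.38 and -0.42 (adjusted p = 0.272 and 0.091).

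RCN1 (chromosome XI, 153816 to 154451, minus strand) showed the widest responses among the 9 genes. It encodes the regulator of calcineurin that can inhibit the phosphatase and is itself a calcineurin-dependent gene. Without drug it ran from 21.2 to 61 with a median of 49.2. Under rapamycin it ran from 9.76 to 26.6 with a median of 16.2, and under LiCl from 11.2 to 29.1 with a median of 17. Of the 11 rapamycin cultures 9 lay below the lowest drug-free culture, as did 8 of the 10 LiCl cultures.

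RCN1 fell by 1.69 ± 0.22 on the log2 scale under rapamycin (3.23-fold, adjusted p = 5.42e-10) and by 1.35 ± 0.23 under LiCl (2.55-fold, adjusted p = 5.32e-07). Within single experiments the difference from that experiment's own drug-free cultures was -1.40, -1.60 and -1.82 for rapamycin and -1.26, -1.52 and -1.59 for LiCl, the same direction in all 3 experiments of each drug. The -1.40 is from the myriocin-rapamycin experiment, which has 1 drug-free culture. RCN1 was lower under both drugs in each growth set. The plain differences from the drug-free cultures of the same set, not adjusted for experiment, were -1.20 and -1.87 for rapamycin in the lower and higher set. For LiCl they were -1.32 and -1.44.

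Under cycloheximide RCN1 ran from 18.1 to 49.5 with a median of 31.5, and 2 of 10 cultures lay below the drug-free range. The log2 change was -0.69 ± 0.24 (adjusted p = 0.0468), a call that was lost under 7 of 12 alternatives, with the adjusted p between 0.000425 and 0.675 over all settings. By experiment the difference was -1.14 and -0.98 with LiCl and rapamycin as the partner drug, but 0.99 in the cycloheximide-myriocin experiment, which holds a single matched cycloheximide culture and drug-free values of 21.2 and 27.9. Without that culture the change was -1.03 (adjusted p = 0.00235), and without the myriocin cultures of the myriocin-rapamycin experiment it was -0.65 (adjusted p = 0.0668) and not called. Under myriocin RCN1 ran from 21.7 to 92.1 with a median of 45.5, a log2 change of 0.40 ± 0.23 that was not called (adjusted p = 0.211).

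RCN2 (chromosome XV, 755328 to 756125, plus strand) encodes the second member of the regulator family. Its median was 51.2 without drug, 41 under cycloheximide, 35.9 under LiCl, 45.9 under myriocin and 39.5 under rapamycin, with overlapping ranges throughout. The log2 changes were -0.49, -0.52, -0.31 and -0.44 in that order. None reached 1.5-fold, although the adjusted p was 0.0188, 0.00325 and 0.0158 for cycloheximide, LiCl and rapamycin. In the higher set alone the cycloheximide change was -0.80 and called (adjusted p = 0.0335).

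CMK2 (chromosome XV, 294777 to 296120, minus strand) encodes a calmodulin-dependent protein kinase. It ran from 355 to 659 with a median of 474 in drug-free cultures, from 230 to 387 with a median of 310 under cycloheximide and from 230 to 390 with a median of 277 under rapamycin. Of the cycloheximide cultures 8 of 10 lay below every drug-free culture, and of the rapamycin cultures 9 of 11. CMK2 fell by 0.82 ± 0.12 under rapamycin (1.76-fold, adjusted p = 4.71e-08) and by 0.68 ± 0.13 under cycloheximide (1.60-fold, adjusted p = 0.000119). The cycloheximide change was not called in the lower set alone (-0.52, adjusted p = 0.0587), nor, at -0.56, when the 3 dense drug-free cultures were left out; those 3 had CMK2 values of 595 to 659, against 355 to 593 in the rest. Under LiCl its median was 371 (-0.40 ± 0.12) and under myriocin 420 (-0.08 ± 0.13), neither of them called.

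PMC1 (chromosome VII, 485921 to 489442, plus strand) encodes the vacuolar calcium pump. It was the only member whose 600 bases before the start codon held the binding consensus of Crz1, searched on both strands as GNGGCTCA and GNGGCGCA. The windows below are shown because they are the pathway's candidate control elements among these genes, with the match in capitals and the plus strand of the R64 reference genome printed 5′ to 3′. The first lies 540 to 533 bases upstream at chrVII:485361-485408 and the other 143 to 136 bases upstream at chrVII:485758-485805, where the match reads on the opposite strand.
PMC1 distal window: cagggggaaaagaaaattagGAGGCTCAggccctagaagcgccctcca
PMC1 proximal window: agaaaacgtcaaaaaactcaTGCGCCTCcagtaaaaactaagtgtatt
Of 5999 such upstream windows in the genome 273 (4.55%) held a match. A match is a description of the letters and was not tested as a binding site, and the absence of these letters from the other 8 windows says nothing about Crz1 at those genes.

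PMC1 values ran from 176.7 to 325 with a median of 218 without drug and from 126 to 208 under rapamycin, and 5 of 11 rapamycin cultures lay below the drug-free range. The log2 change was -0.59 ± 0.12 (1.51-fold, adjusted p = 5.6e-05). It stood just past the fold limit and fell under it in 6 of 12 alternatives, with values from -0.38 to -0.85; without the myriocin cultures of the myriocin-rapamycin experiment it was -0.43. Under cycloheximide, LiCl and myriocin the changes were -0.39, -0.28 and -0.02, not called, although the LiCl change was -0.66 and called in the higher set alone (adjusted p = 0.0383).

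PMR1 (chromosome VII, 187616 to 190468, minus strand) encodes the Golgi pump for calcium and manganese. Its medians were 92.9 without drug and 92.3, 96.9, 82.6 and 103 under cycloheximide, LiCl, myriocin and rapamycin, and the log2 changes lay between -0.14 ± 0.10 and 0.08 ± 0.09. The gene overlaps HUR1, so that reads of both may be mixed where counting did not use strand.

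In all, 2 members were called under cycloheximide, where 3.47% of all features were called, 1 under LiCl (10.3%), 0 under myriocin (8.63%) and 3 under rapamycin (7.12%). All 6 calls were lower. For myriocin the smallest adjusted p by limma was that of CNB1, which did not reach the fold limit. The median log2 change of the 9 genes was -0.39, -0.11, 0.03 and -0.44 for cycloheximide, LiCl, myriocin and rapamycin, beside -0.04, -0.02, -0.01 and -0.05 for all features. The 4 comparisons share their drug-free cultures.

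**Figure D1:**
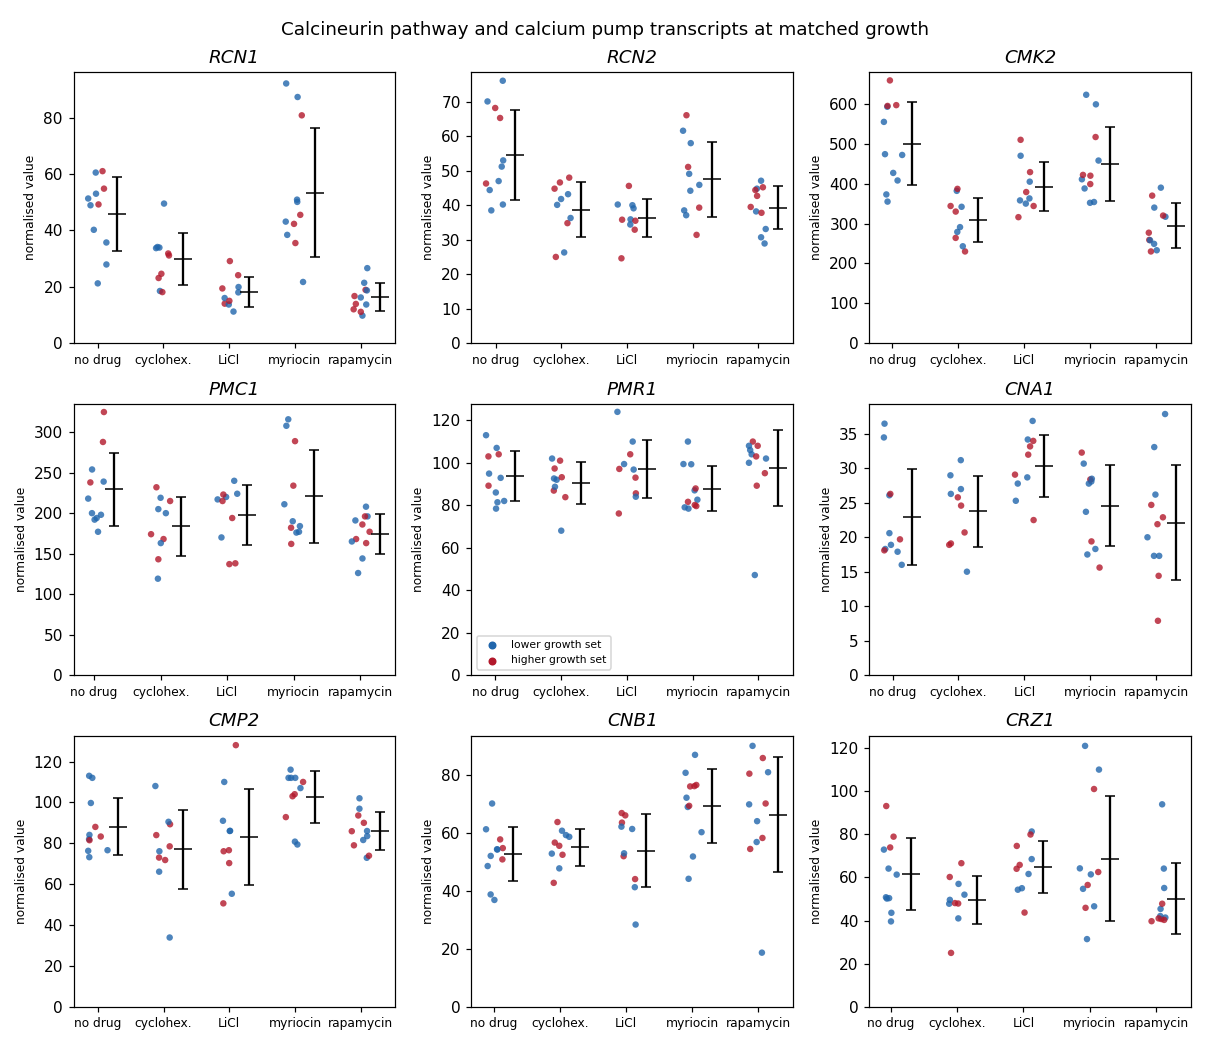
Normalised values (vertical axes, linear from 0) of the 9 transcripts in drug-free cultures and in the matched cultures of each drug. Points are cultures coloured by growth set, and the bar to the right of each group is the mean with its SD; for RCN1 9 of 11 rapamycin cultures and 8 of 10 LiCl cultures lie below the lowest drug-free culture.

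Among the drugs themselves, the fitted RCN1 levels ran in the order myriocin, cycloheximide, LiCl and rapamycin. Myriocin was above cycloheximide by 1.09 ± 0.29 (adjusted p = 0.00724), above LiCl by 1.75 ± 0.25 (adjusted p = 4.82e-09) and above rapamycin by 2.09 ± 0.24 (4.26-fold, adjusted p = 4.46e-13). Cycloheximide was above rapamycin by 1.00 ± 0.26 (adjusted p = 0.00332), which was 0.73 (adjusted p = 0.053) without cycloheximide replicate 1. The neighbours cycloheximide and LiCl, and LiCl and rapamycin, were not called different. Myriocin also stood above cycloheximide and rapamycin for CMK2 (0.60 and 0.74) and for CRZ1 (0.79 and 0.81), giving 3 members called in cycloheximide against myriocin (5.6% of all features) and 3 in myriocin against rapamycin (11.3%). The count was 1 in cycloheximide against rapamycin (6.3%) and in LiCl against myriocin (14.3%), and 0 in cycloheximide against LiCl (7.4%) and LiCl against rapamycin (11.7%).

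Without the myriocin cultures of the myriocin-rapamycin experiment, RCN1 in myriocin stood 1.52 above rapamycin (adjusted p = 0.000267), and 0.71 above cycloheximide (adjusted p = 0.152). In that setting the CMK2 and CRZ1 calls were lost. Their differences from rapamycin were 0.45 and 0.21, with adjusted p of 0.0633 and 0.561, and those from cycloheximide 0.40 and 0.38, with adjusted p of 0.142 and 0.301. CNB1 was instead called in that setting, with myriocin above cycloheximide by 0.76 (adjusted p = 0.00954), above LiCl by 0.69 (adjusted p = 0.00202) and above rapamycin by 0.76 (adjusted p = 0.00458). Without cycloheximide replicate 1, calls were gained for CRZ1, which was lower in cycloheximide than in LiCl (-0.61, adjusted p = 0.0324), and for PMC1, which was higher in myriocin than in rapamycin (0.60, adjusted p = 9.81e-05).

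Without the libraries of low depth, LiCl was called above rapamycin for CRZ1 (0.72, adjusted p = 0.000824) and CNA1 (0.75, adjusted p = 0.00163), and with array weights both were called again, at 0.66 and 0.68. PMC1 was likewise called higher in myriocin than in rapamycin in these settings, at 0.64 and 0.71, and at 0.62 in the narrower growth window. Array weights also put CNA1 above rapamycin in cycloheximide, by 0.61 (adjusted p = 0.00547). Without batch terms RCN1 was called higher in cycloheximide than in LiCl, by 0.68 (adjusted p = 0.0139), and the calls of cycloheximide against myriocin for CMK2 (-0.53) and CRZ1 (-0.40) and of myriocin against rapamycin for CRZ1 (0.39) fell under the fold limit.

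That experiment was also compared directly with the LiCl-myriocin experiment at the 2 myriocin doses they share, 0.396 and 0.449 µg/ml, with 4 cultures in each and each growth set represented in both. The comparison was chosen after these values were seen. RCN1 was 92.1, 87.3, 94.7 and 80.8 in the myriocin-rapamycin experiment and 50.1, 45.5, 21.7 and 42.3 in the other. CRZ1 was 110, 121, 76 and 101 against 61.4, 62.5, 54.7 and 45.9. For both genes every culture of the first experiment lay above every culture of the second. The share of all features with such a separation is not given here.

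The difference was 1.20 ± 0.21 for RCN1 (2.29-fold, adjusted p = 0.000674) and 0.84 ± 0.14 for CRZ1 (1.79-fold, adjusted p = 0.000644), 2 members called where 11.9% of all features were. CMK2, at 474 to 623 against 352 to 420, differed by 0.53 ± 0.09 and PMC1, at 284 or more against 234 or less, by 0.58 ± 0.10, each with an adjusted p under 0.05 (0.000848 and 0.000736) and just under the fold limit. Relative growth was 0.553 to 0.693 against 0.496 to 0.633, and estimated depth 570995 to 684117 against 292291 to 455971. Their part in the difference was not tested.

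Along the concentration gradients, RCN1 declined with growth inhibition under 3 of the 4 drugs by the fitted slope. Each gradient was taken from 1 experiment with its drug-free cultures (22 cultures for cycloheximide, 26 for LiCl, 22 for myriocin and 25 for rapamycin), and the slope is given as the log2 change at a relative growth of 0.5. In the cycloheximide gradient the RCN1 median was 56.2 at a relative growth above 0.95, 45.8 between 0.8 and 0.95, 34.4 between 0.65 and 0.8, 33.7 between 0.5 and 0.65 and 21.3 below 0.5. In the LiCl gradient it was 45.8, 27.8, 22.9 and 17 over the first 4 of these ranges.

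The RCN1 change at a relative growth of 0.5 was -0.99 ± 0.16 for cycloheximide (adjusted p = 4.34e-05), -1.44 ± 0.23 for LiCl (adjusted p = 4.36e-05), -1.34 ± 0.17 for rapamycin (adjusted p = 1.81e-07) and 0.00 ± 0.14 for myriocin (adjusted p = 0.991). The cycloheximide call was lost in the lower set alone (-0.62, adjusted p = 0.114) and the LiCl call in the higher set alone (-0.96, adjusted p = 0.211). CMK2 fell by 1.03 ± 0.09 along cycloheximide (adjusted p = 5.3e-09), from a median of 475 above a relative growth of 0.95 to 247 below 0.5. Its changes along LiCl, myriocin and rapamycin were -0.48, -0.28 and -0.41 and stayed under the fold limit.

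Along myriocin the member called was CNB1. It was 36.9 and 38.8 in the 2 drug-free cultures of that experiment and 42.5 to 62.2 in the 8 drug-treated cultures with a relative growth of 0.702 or more. Between a relative growth of 0.35 and 0.5 it was 69, 72.2 and 76.1. In the 5 cultures growing below 0.35, at 0.579 to 0.962 µg/ml, it was 74.8 to 99.6, above all the other cultures except 2 at 76.1 and 76.6, which exceeded the lowest of the 5. The change was 0.65 ± 0.09 (1.57-fold, adjusted p = 7.88e-07), and 0.56 (adjusted p = 0.02), under the fold limit, without the cultures below a relative growth of 0.35. It was also not called with a pseudocount of 10 (0.57) or in the higher set alone (0.58, adjusted p = 0.32). CNB1 was 70.2 in the drug-free culture of the myriocin-rapamycin experiment, near its matched myriocin mean of 72.5 there.

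The members called were 2 along cycloheximide (5.32% of all features), 1 along LiCl (6.74%), 1 along myriocin (16%) and 1 along rapamycin (6.04%), with a member median of -0.45, -0.03, -0.16 and -0.14 beside -0.03, -0.04, -0.03 and -0.03 for all features. PMC1 changes ran from -0.31 to -0.56 over the 4 gradients, none of them called. Along cycloheximide PMC1 was called in the higher set alone (-0.75), with the drug-free cultures left out (-0.65) and without the libraries of low depth (-0.59). Calls gained with all experiments of a drug in the fit were CNA1 along LiCl (0.63) and CMK2 along rapamycin (-0.59), and RCN2 was called along myriocin at a relative growth of at least 0.35 (-0.67). In the myriocin gradient PMC1 was 110 to 175.4 in the 5 cultures below a relative growth of 0.35 and 193.6 to 239 above 0.95.

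In the rapamycin gradient the growth sets parted at several of the doses that scarcely slowed growth. At 0.00163 to 0.00271 µg/ml, where relative growth was 0.993 to 1.03, RCN1 was 53.8 to 72.7 in 5 lower-set wells and 24.0 to 27.2 in 5 higher-set wells, with no overlap. The only drug-free culture of this gradient lay between them, at 40.2, so RCN1 did not simply decline from the drug-free level. At 0.00307 µg/ml the lower-set value was 27.5 and the higher-set value 29.3. Doses under 0.00163 µg/ml, down to 0.000864 µg/ml, scarcely slowed growth either, and their wells are not among the 5 of each set. The set difference over the gradient was -0.59 ± 0.14 (higher minus lower, adjusted p = 0.00839), called for 1 of 9 members and 1.16% of all features. In the cycloheximide, LiCl and myriocin gradients 0 of 9 members differed between the sets by this rule (0.379%, 0.778% and 0.0199%). Final OD600 was 0.5875 to 0.7585 in those lower-set wells and 1.795 to 1.9925 in those higher-set wells, and with OD600 as a term the difference was -0.03 (adjusted p = 0.998). Over this gradient the median OD600 was 0.65 in the lower set and 1.62 in the higher, so that fit can hardly tell set and density apart. The slope did not differ between the sets by the interaction test for any of the 9 genes in any gradient, where 0.0199%, 0.0997%, 0.439% and 0.259% of all features were called for cycloheximide, LiCl, myriocin and rapamycin; a miss in this test does not show that the slopes were alike.

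**Figure D2:**
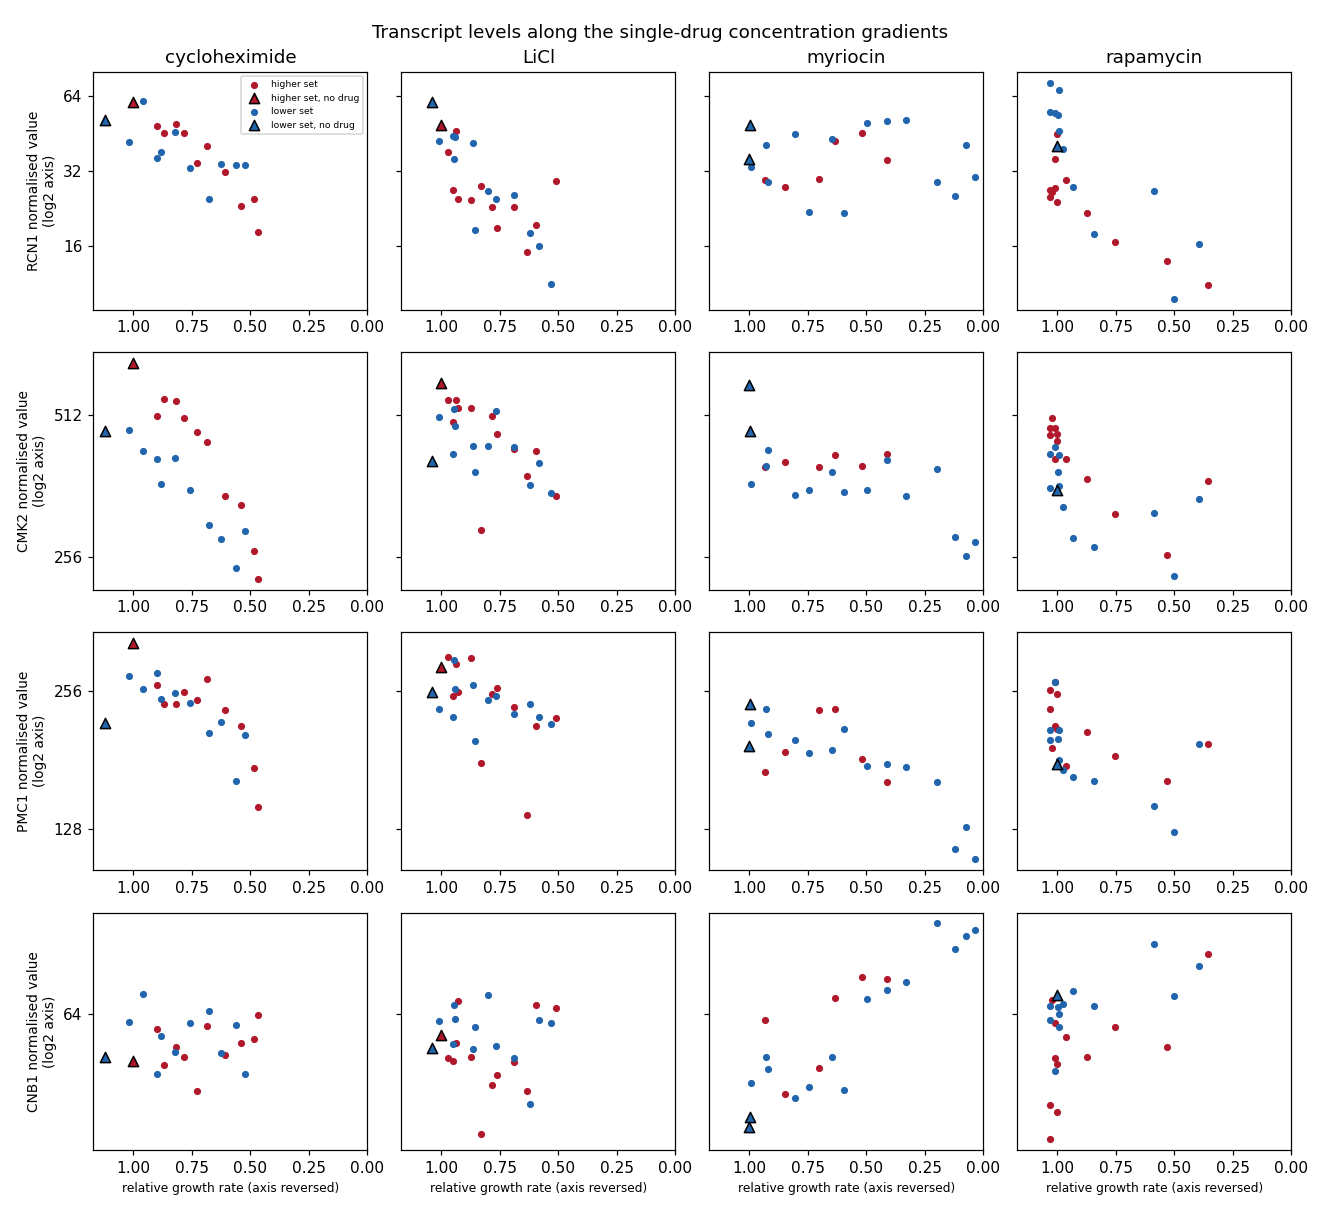
Normalised values (log2 vertical axes) of RCN1, CMK2, PMC1 and CNB1 against relative growth rate (horizontal axes, falling to the right) in the 4 single-drug gradients. Circles are single-drug cultures and triangles drug-free cultures, coloured by growth set. The fitted RCN1 slope is negative along all drugs but myriocin, and CNB1 is 74.8 to 99.6 in the slowest myriocin cultures.

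In the mixtures, RCN1 was lowest where LiCl, cycloheximide and rapamycin were paired with each other. Its median was higher in the 3 mixtures with myriocin, though only slightly in that with LiCl. RCN1 ran from 10.4 to 25.3 with a median of 19.3 in cycloheximide with LiCl, from 13 to 25.2 with a median of 18.5 in cycloheximide with rapamycin and from 9.53 to 24.5 with a median of 18.8 in LiCl with rapamycin. In these 3 mixtures 18 of 22, 17 of 19 and 13 of 18 cultures lay below every drug-free culture. RCN1 fell by 1.30 ± 0.25 (adjusted p = 9.19e-05), 1.26 ± 0.25 (adjusted p = 7.66e-05) and 1.37 ± 0.24 (adjusted p = 4.55e-06).

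In the mixtures with myriocin RCN1 ran from 10.1 to 93.6 with cycloheximide, from 10.4 to 45.8 with LiCl and from 14.7 to 104 with rapamycin, with medians of 53.3, 20.7 and 30.5. Against drug-free cultures none of the 3 was called (0.68, -0.43 and -0.60, with adjusted p of 0.0796, 0.204 and 0.138). The first of these was 1.10 and called without cycloheximide replicate 1 (adjusted p = 0.00531) and 1.05 and called with array weights (adjusted p = 0.00367). The second was -0.70 and called without the myriocin cultures of the myriocin-rapamycin experiment (adjusted p = 0.0416) and -0.99 and called without batch terms. In LiCl with myriocin 15 of 26 cultures lay below every drug-free culture. The plain difference there was -0.93 from the drug-free cultures of the same experiment and -1.31 from those of the higher set. With cycloheximide 1 of 20 lay below and 6 above the drug-free range, and with rapamycin 3 of 16 below and 3 above.

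CMK2 fell in 4 mixtures: by 1.12 in cycloheximide with LiCl, 1.02 in cycloheximide with rapamycin, 0.75 in LiCl with rapamycin and 0.73 in LiCl with myriocin. In cycloheximide with rapamycin its 19 values ran from 187.5 to 314 and all lay below the lowest drug-free value of 355. PMC1 in the same mixture ran from 119 to 172, also entirely below its drug-free range, and fell by 0.83 ± 0.13 (adjusted p = 7.28e-07). How many of all features lay wholly outside their drug-free range is not given here. PMC1 fell by 0.72 in cycloheximide with LiCl, where it ran from 95.8 to 197.6, and that change was -0.56 without the 3 dense drug-free cultures. RCN2 was called in this mixture as well, at 25.2 to 38.5 and a fall of 0.77 ± 0.16 (adjusted p = 0.000183).

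CRZ1 was called higher than in drug-free cultures in 1 mixture. In cycloheximide with myriocin it ran from 45.7 to 105 with a median of 67.6, overlapping the drug-free range, and rose by 0.75 ± 0.21 (adjusted p = 0.00448). Without batch terms the change was 0.21 (adjusted p = 0.213). Within the experiment alone, where the 2 drug-free cultures averaged 44.9, it was 0.62 (adjusted p = 0.098). All mixtures of that experiment are in the higher growth set and all its other cultures in the lower, so the set could not be adjusted for there. Against the 3 drug-free cultures of the higher set, all from other experiments, the plain CRZ1 difference had the opposite sign. It was -0.23, with a mean of 71 against 82, so the rise depends on how experiment and set are adjusted for. With array weights the CRZ1 change was 0.58, under the fold limit.

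The number of members called against drug-free cultures was 4 in cycloheximide with LiCl (6.76% of all features), 1 in cycloheximide with myriocin (10.9%), 3 in cycloheximide with rapamycin (7.98%), 1 in LiCl with myriocin (12.9%), 2 in LiCl with rapamycin (6.98%) and 0 in myriocin with rapamycin (5%). By limma, CMK2 in the last of these was at -0.53 and CNB1 at 0.45, the latter with an adjusted p of 0.0738. The subunit genes CNA1, CMP2 and CNB1 and the pump gene PMR1 were not called in any mixture against drug-free cultures by that test, with log2 changes of -0.01 to 0.41, -0.16 to 0.13, 0.15 to 0.45 and -0.19 to 0.16. Without the single-drug myriocin cultures of the myriocin-rapamycin experiment CNB1 was called in LiCl with myriocin, at 0.61 (adjusted p = 0.00383). Without cycloheximide replicate 1, CRZ1 and RCN2 were called lower in cycloheximide with rapamycin, at -0.68 and -0.59 (adjusted p = 0.00551 and 0.00636). CRZ1 was also called there with array weights (-0.63) and RCN2 within the experiment alone (-0.68). CNA1 was called in cycloheximide with LiCl with final OD600 as a term (0.59, adjusted p = 0.0458). Without the libraries of low depth, CRZ1 was called lower in cycloheximide with LiCl (-0.64), and in myriocin with rapamycin CMK2 was called lower (-0.59) and CNB1 higher (0.59). CRZ1 in cycloheximide with LiCl was -0.65 and called with array weights, and CNB1 in myriocin with rapamycin was 0.59 and called without batch terms.

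Set against its own single drugs, a mixture differed for 3 of the genes. RCN1 in LiCl with myriocin lay above LiCl by 0.93 ± 0.26 (adjusted p = 0.00507; 7.24% of all features called, 1 of 9 members) and below myriocin by 0.83 ± 0.19 (adjusted p = 0.000786). RCN1 in myriocin with rapamycin lay above rapamycin by 1.09 ± 0.22 (adjusted p = 0.00118; 0.877%, 1 of 9) and below myriocin by 1.00 ± 0.24 (adjusted p = 0.003; 3.07%, 1 of 9). Both mixtures thus stood between their single drugs in the fit. Without the single-drug myriocin cultures of the myriocin-rapamycin experiment, the difference of the second mixture from myriocin was -0.21 (adjusted p = 0.823) and that of the first from LiCl 0.66 (adjusted p = 0.0786). Without cycloheximide replicate 1, CRZ1 in the second mixture was called lower than in myriocin (-0.60, adjusted p = 0.0116). It was also called without the libraries of low depth (-0.67) and with array weights (-0.78).

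Within the myriocin-rapamycin experiment alone, the differences of the mixture from myriocin were called for CRZ1 (-1.07, adjusted p = 0.01), CMK2 (-0.68, adjusted p = 0.0262) and PMC1 (-0.65, adjusted p = 0.0228), while that of RCN1 was -0.92 and not called (adjusted p = 0.166). Within the LiCl-myriocin experiment alone the RCN1 difference of the mixture from LiCl was 0.64 and not called (adjusted p = 0.301). Without batch terms it was 0.29 (adjusted p = 0.181), and the RCN1 difference of myriocin with rapamycin from myriocin was -0.52, under the fold limit.

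In cycloheximide with myriocin, RCN1 lay above cycloheximide by 1.37 ± 0.32 (adjusted p = 0.00501) and CRZ1 by 1.25 ± 0.23 (adjusted p = 0.00015), 2 of 9 members where 1.93% of all features were called. Within that experiment alone, the RCN1 difference was 0.00 and the CRZ1 difference 0.74. It has 1 matched cycloheximide culture, and growth set could not be adjusted for there. CMK2 lay below LiCl by 0.72 in cycloheximide with LiCl (1 of 9 members, 1.42%) and below myriocin by 0.66 in LiCl with myriocin (2 of 9 with RCN1, 4.25%). Within single experiments neither CMK2 call remained, at -0.81 (adjusted p = 0.0626) and -0.56, and the first was -0.42 without batch terms. Without batch terms the CRZ1 difference of cycloheximide with myriocin from cycloheximide was 0.51, also under the fold limit. In the other 6 comparisons of a mixture with 1 of its drugs 0 of 9 members were called, although 2.21% of all features were in cycloheximide with LiCl against cycloheximide, 5.1% in cycloheximide with myriocin against myriocin, 1.36% and 5.86% in cycloheximide with rapamycin against each of them in turn, and 5.22% and 3.39% in LiCl with rapamycin likewise. Of these, CRZ1 in cycloheximide with myriocin was called higher than in myriocin without the myriocin cultures of the myriocin-rapamycin experiment (0.75, adjusted p = 0.0301). Within its own experiment, which has 1 matched myriocin culture, that difference was 1.11, again without adjustment for growth set. RCN1 in cycloheximide with LiCl was called lower than in cycloheximide without batch terms (-0.61), and CNA1 in cycloheximide with rapamycin higher than in rapamycin within that experiment (1.02, adjusted p = 0.00485). A miss in these tests does not show that the levels were alike.

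Against the mean of both single drugs, 1 of 54 member comparisons was called. It was CRZ1 in cycloheximide with myriocin, 0.86 ± 0.20 above the midpoint (adjusted p = 0.00473; 2.37% of all features), and it was 0.32 without batch terms and 0.56 with array weights (adjusted p = 0.138). With 0 of 9 members called, the share of all features was 0.459% in cycloheximide with LiCl, 2.01% in cycloheximide with rapamycin, 2.41% in LiCl with myriocin, 1.14% in LiCl with rapamycin and 0.0598% in myriocin with rapamycin. Calls gained with libraries left out were RCN1 in cycloheximide with myriocin, 0.92 above the midpoint without the myriocin cultures of the myriocin-rapamycin experiment (adjusted p = 0.0351) and 1.39 above it without cycloheximide replicate 1 (adjusted p = 0.00308), and CMK2 in cycloheximide with LiCl, 0.59 below it without those myriocin cultures (adjusted p = 0.00589).

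Within a mixture, the level of several members changed with the proportion of the drugs. For each mixture the dose share of the second drug was computed by scaling each dose to the drug's median matched dose and taking the second as a share of the total, and changes are given from a share of 0 to 1. In myriocin with rapamycin, the 4 cultures with a rapamycin share of 0.145 to 0.22 had RCN1 values of 104, 74.4, 84.6 and 58.3. The 4 cultures from 0.318 to 0.468 had values of 31.9 to 42.4, and the culture at 0.563 had 28. Above a share of 0.6 the 7 values were 14.7 to 29. RCN1 thus spanned the range from above every drug-free culture to below the lowest of them along 1 series of wells.

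The RCN1 change along that share was -2.77 ± 0.36 (adjusted p = 2.08e-06). Relative growth fell along the same series, from 0.658 at the lowest share to 0.397 to 0.552 above 0.6, and with growth as a term the change was -2.05 (adjusted p = 0.0117). CRZ1 followed the same course, with 73 to 102 in the 5 cultures up to a share of 0.318 and 37.9 to 52.8 in the other 11, a change of -1.56 ± 0.24 (adjusted p = 1.96e-05). PMC1 changed by -1.17 ± 0.14, from 232 to 294 in the first 5 cultures to 137 to 200 above 0.6, CMK2 by -1.10 ± 0.18 and RCN2 by -0.81 ± 0.28. These 5 members were called where 18.8% of all features were. RCN2 lost its call without the culture of lowest share (adjusted p = 0.0578) and with growth as a term (adjusted p = 0.191).

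In LiCl with myriocin, RCN1 rose by 1.33 ± 0.32 (adjusted p = 0.00213), CMK2 by 0.99 ± 0.18 (adjusted p = 6.32e-05) and CNB1 by 0.89 ± 0.26 (adjusted p = 0.0103) with the myriocin share, 3 members where 16.5% of all features were called. The median of the 9 cultures of lowest share was 18 for RCN1, 241 for CMK2 and 45.2 for CNB1, and that of the 9 of highest share 30.0, 365 and 76.5. In cycloheximide with myriocin, RCN1 changed by 1.94 ± 0.47 (adjusted p = 0.00501), CMK2 by 0.81, PMC1 by 1.04 and CNA1 by -1.49, 4 members where 6.7% of all features were called.

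RCN1 was 10.1 in the cycloheximide-myriocin culture of lowest share and 30.3 to 93.6 in the other 19. Without that culture the RCN1 change was 1.07 (adjusted p = 0.142), that of CNA1 -1.55 (adjusted p = 0.0533) and that of CMK2 0.58, under the fold limit. The RCN1 and CMK2 changes were smaller without it, while that of CNA1 was no smaller and lost its call through the adjusted p. PMC1 kept its call, at 0.78 (adjusted p = 0.0319), with values of 118 and 126 in the 2 cultures of lowest share and 175.9 to 263 in the rest. With the matched single-drug cultures included in the series, the changes were 1.11 for RCN1 (adjusted p = 0.146), -0.80 for CNA1 (adjusted p = 0.305) and 0.63 for PMC1 (adjusted p = 0.0762), none of them called, and CMK2 kept its call at 0.61. CNB1, at 0.75 with an adjusted p of 0.0992, was called with growth as a term (0.89, adjusted p = 0.0335).

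Where rapamycin was added to LiCl, CMK2 fell with the rapamycin share by 1.03 ± 0.15 (adjusted p = 1.22e-05) and PMC1 by 0.72 ± 0.19 (adjusted p = 0.00672), 2 members where 18.7% of all features were called. The CMK2 median was 411 in the 6 cultures of lowest share and 264 in the 6 of highest. Where LiCl was added to cycloheximide, CMK2 changed by 0.74 ± 0.19 with the LiCl share, PMC1 by 0.81 ± 0.13 and CRZ1 by 0.64 ± 0.21, 3 members where 17.2% were called. With the matched single-drug cultures included, the rapamycin share changes were -0.51 for CMK2 and -0.29 for PMC1 (adjusted p = 0.093) and the LiCl share change was 0.51 for PMC1, none of them called. The CRZ1 change was 0.55, under the fold limit, with a pseudocount of 10. RCN1 was called in neither (0.44 and -0.33). In cycloheximide with rapamycin 0 of 9 members were called although 19.2% of all features were, with RCN1 at -0.22 and CNB1 at 0.52 (adjusted p = 0.0451), which was 0.60 and called without the culture of lowest share (adjusted p = 0.031). With the single-drug cultures included RCN1 was -0.71 there and called (adjusted p = 0.00175).

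**Figure D3:**
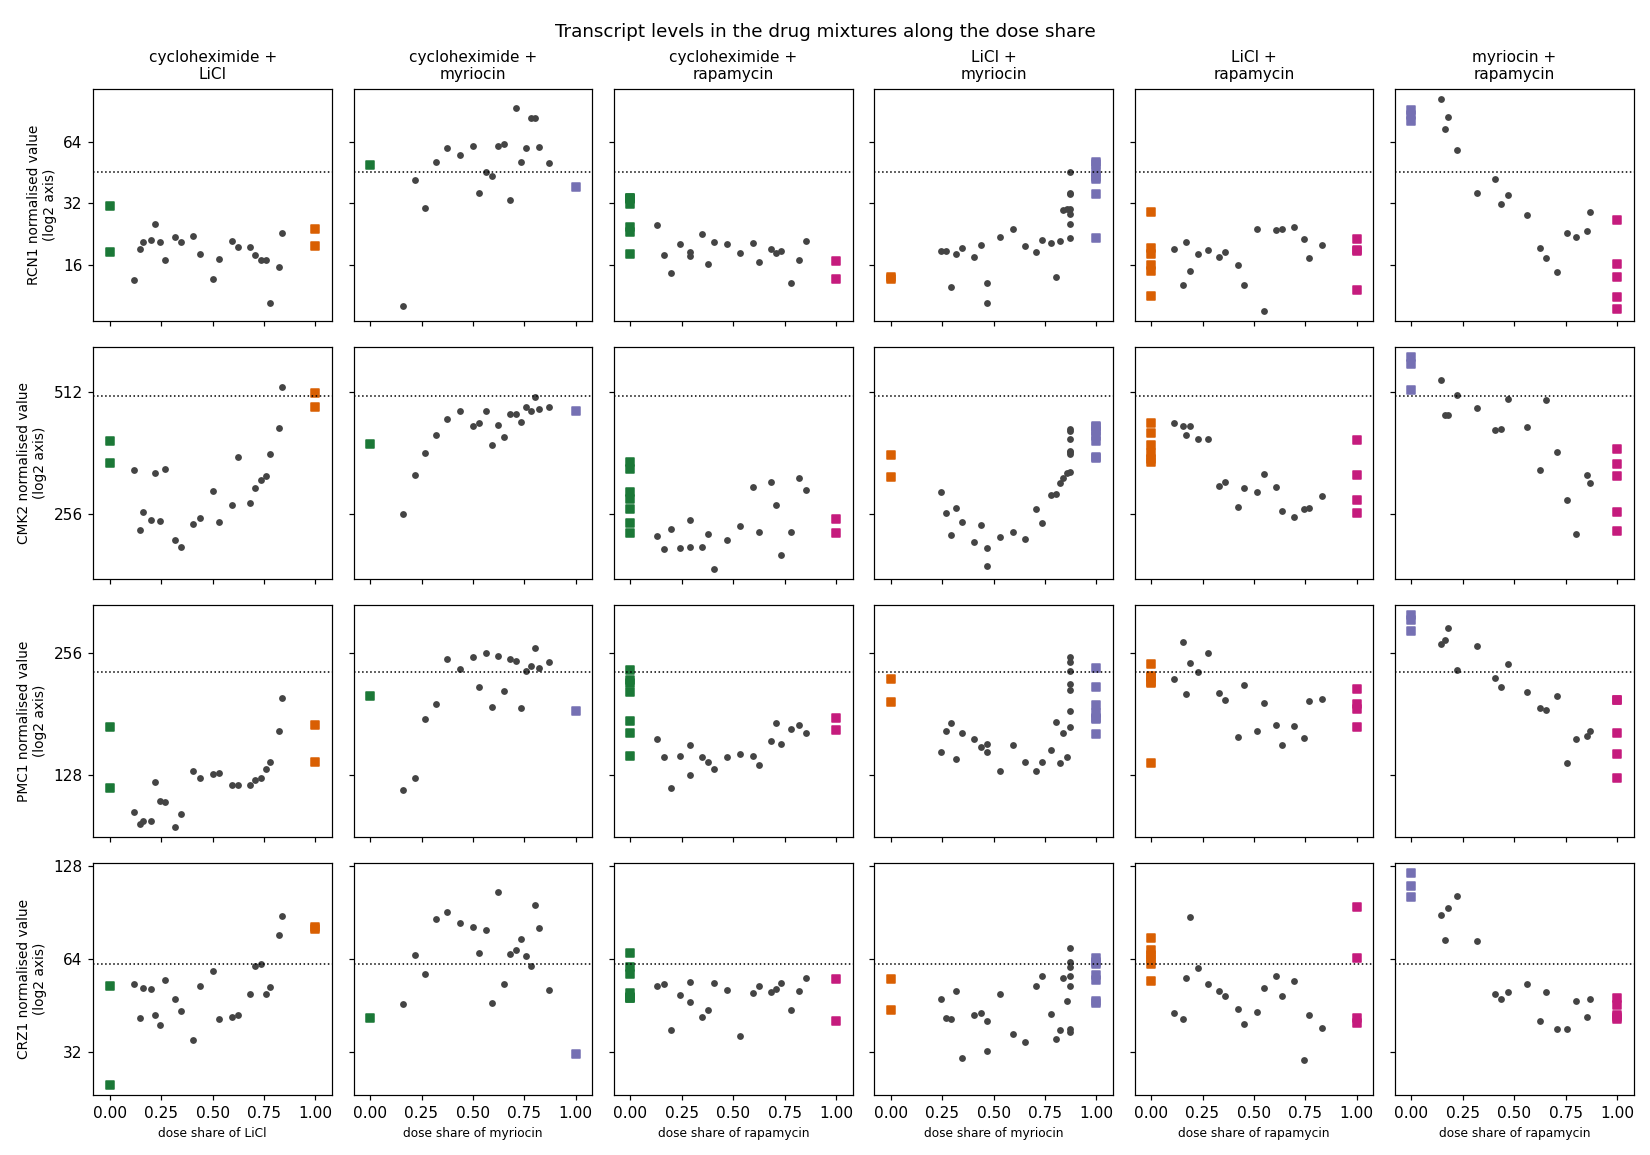
Normalised values (log2 vertical axes) of RCN1, CMK2, PMC1 and CRZ1 in the 6 mixtures against the dose share of the second drug (horizontal axes). Dark points are mixture cultures, squares at 0 and 1 the matched single-drug cultures of the same experiment, and the dotted line the mean of the 11 drug-free cultures; in myriocin with rapamycin RCN1 runs from 104 to 14.7.

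Other genes of the pathway were taken from lists of calcium channels, exchangers and other pumps, of calmodulin and its kinase, of proteins that modify or carry Crz1 or Rcn1, of calcineurin substrates and of Crz1 targets, 24 genes of which 23 were tested. Under single drugs at matched growth 0 of the 23 were called higher. Called lower were 2 under cycloheximide (1.73% of all features were called lower), 0 under LiCl (4.83%), 1 under myriocin (4.47%) and 2 under rapamycin (3.49%). Their median log2 change was -0.05, -0.04, -0.10 and -0.10. GYP7 and YLR194C made up the calls under cycloheximide (-0.75 and -0.70) and rapamycin (-0.80 and -0.71), and CMK1, a calmodulin-dependent kinase like CMK2, the call under myriocin (-0.71). GYP7 encodes a GTPase-activating protein of vacuolar traffic.

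GYP7 values ran from 48.6 to 117 with a median of 89.1 without drug and from 29.3 to 65.3 with a median of 56.8 under rapamycin. Its upstream window held 1 match to the Crz1 consensus, shown for comparison with PMC1 and lying 148 to 141 bases before the start codon. It is at chrIV:36598-36645 (build R64) and is printed 5′ to 3′ along the minus strand, on which the gene lies.
GYP7 window: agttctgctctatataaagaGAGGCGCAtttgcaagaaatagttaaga
Among the 6 Crz1 targets outside the members, 3 held a match (ENA1, GYP7 and PUT1).

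Along the rapamycin share in myriocin with rapamycin, 3 of the 6 further Crz1 targets fell and 0 rose, where 9.81% of all features fell and 9.01% rose: YLR194C by 1.93, PUT1, a proline catabolic enzyme, by 1.38 and GYP7 by 0.94, with a median of -0.66 for the 6. Along the myriocin share in LiCl with myriocin, 3 rose and 0 fell, YLR194C by 1.25, PUT1 by 1.11 and GYP7 by 0.74, where 8.37% of all features rose. Along the rapamycin share in cycloheximide with rapamycin 3 others rose, GSC2, the FKS2 subunit of cell wall glucan synthase, by 2.69, CRH1, a cell wall transglycosylase, by 1.38 and ENA1, the sodium and lithium efflux pump, by 0.78, where 9.23% of all features rose. ENA1 rose by 1.71 and GSC2 by 1.68 with the LiCl share in cycloheximide with LiCl, where PUT1 fell by 1.00 (8.45% of all features rose and 8.75% fell). In cycloheximide with myriocin 2 rose and 0 fell, GSC2 by 1.46 and YLR194C by 0.94, where 3.29% of all features rose. In LiCl with rapamycin 2 rose, CRH1 by 1.12 and GSC2 by 0.64, and ENA1 fell by 0.74 (9.99% of all features rose and 8.75% fell). ENA1 has near-identical neighbouring copies, and its values are uncertain for that reason.

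SLM1, a calcineurin substrate that acts with the TORC2 kinase, fell by 2.13 along the myriocin share in LiCl with myriocin (adjusted p = 4.22e-06) and by 0.84 along the myriocin gradient (adjusted p = 0.000275). It also fell, 2.83-fold, along the rapamycin share in LiCl with rapamycin (adjusted p = 0.00339) and rose by 0.68 along the LiCl share in cycloheximide with LiCl (adjusted p = 0.0306), and it was higher in LiCl than in myriocin by 0.70. CCH1, the plasma membrane calcium channel, rose by 0.96 along the myriocin gradient and by 0.66 along the rapamycin gradient, and along the rapamycin share by 1.55 in cycloheximide with rapamycin and by 1.18 in myriocin with rapamycin. The vacuolar channel gene YVC1 was lower than in drug-free cultures in LiCl with rapamycin (-0.67) and in myriocin with rapamycin (-0.62). The calmodulin gene CMD1 rose by 0.92 along the rapamycin share in LiCl with rapamycin and by 0.67 along the myriocin share in LiCl with myriocin. NMD5 changed by -1.99 along the myriocin share in cycloheximide with myriocin and by 0.73 in cycloheximide with LiCl against drug-free cultures. ALY1, GDT1, ECM7, ROD1, FRT1 and SPF1 were also called in some comparison.

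Across the 238 libraries, CMK2 and PMC1 had the highest correlation between any pair of the 9 genes, with Pearson's r of 0.772. CMK2 had an r of 0.609 with RCN1 and 0.599 with CRZ1, and PMC1 0.556 and 0.530. The subunit genes stood apart from these 4, CNA1 with r between -0.223 and -0.011, CNB1 between -0.081 and 0.175 and CMP2 between 0.045 and 0.228. These are descriptions over libraries that share experiments, drugs and normalisation. The median r with all tested features was between -0.02 and 0.03 for each member.

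**Figure D4:**
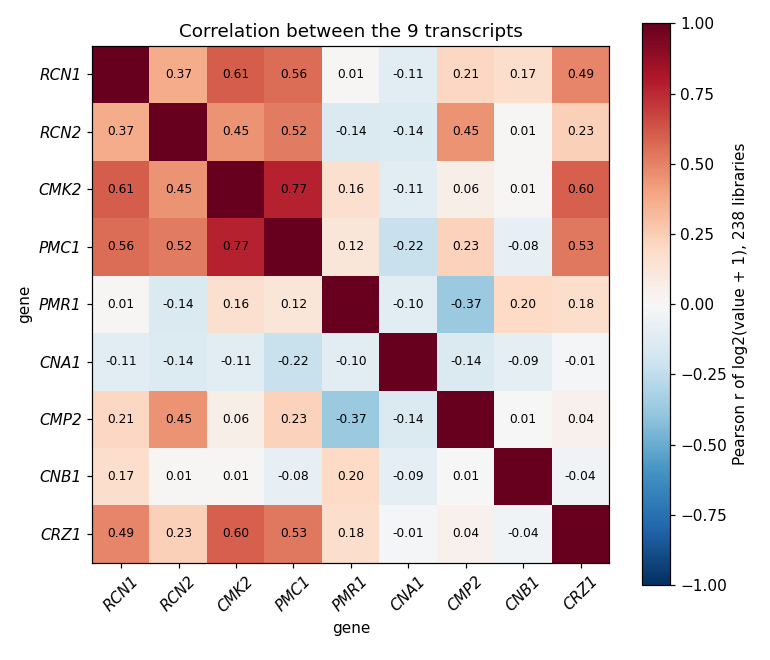
Pearson's r of log2(value + 1) between each pair of the 9 transcripts over 238 libraries, printed in each cell. RCN1, CMK2, PMC1 and CRZ1 have r of 0.488 to 0.772 with each other.

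By the same measure, the features most like CMK2 were DIA1 (0.835), YMR316C-A (0.799) and PMC1 (0.772), and those most like PMC1 were CMK2 (0.772), GYP7 (0.769) and PRB1 (0.756), the vacuolar proteinase B. CRZ1 was most like YMR316C-A (0.624), DIA1 (0.613) and CMK2 (0.599). RCN1 was most like YOR385W (0.705), OSW2 (0.688) and RVS161 (0.647), and RCN2 like GYP7 (0.533), YOR385W (0.524) and YCR007C (0.523).

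PMR1 was most like HUR1 (0.684), the gene that overlaps it, and SPF1 (0.606), which encodes a P-type ATPase of the endoplasmic reticulum, and then TOS1 (0.588). CMP2 was most like YGR182C (0.759), QCR7 (0.737) and YGL188C (0.735), and CNB1 like YGL242C (0.600), YDR008C (0.525) and TRP1 (0.521). For CNA1 the highest values were low, with PWP1 (0.379), DRS1 (0.362) and RIX7 (0.349), 3 genes of ribosome assembly.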

How the data were processed

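Libraries were made from polyadenylated RNA with barcoded poly(T) primers carrying short molecular identifiers, per the labels' protocols. TopHat, UMI-tools, featureCounts and build R64 are named per the submitters' processing notes; versions, strand and multiple-match settings: not given in the sources used here. The values deposited by the authors are a normalised signal per feature, not counts. Read from the values, all libraries share 1 largest value (17026.2) and totals of 595181 to 596851, and multiplied by 239 they are whole (77.2%) or midpoints (22.8%) within 0.01, the pattern that quantile normalisation leaves. Such scaling gives every library 1 distribution, so a shift of all transcripts together cannot be seen. Depth was estimated per library from tied values, taking the 31st distinct value as 30 reads; it limits the precision of low transcripts. No 2 libraries were identical (closest pair r = 0.9891).

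Since the values are a signal, the count test considered in the design was not used. limma 3.58.1 (R 4.3.3) with a mean-variance trend was fitted to log2(value + 1) of the 5015 features with a mean of at least 10. The fit of 15 groups had experiment and growth set as terms, and the gradient fits the growth set. A call needed an adjusted p under 0.05 (Benjamini-Hochberg over all features) and 1.5-fold. Groups, doses and growth rates came from the labels, and the growth set from absolute growth rate per unit of relative growth in them. The procedure was tested on simulated data. Figures used Python 3.11.15 and matplotlib 3.10.9.

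The members and gene lists were chosen with earlier results of these data known. Besides the 9 members, the text names the 3 features of highest correlation with each and listed pathway genes that were called in a comparison. Not every call of those listed genes is given. SLM2 was under the filter. Alternatives were another pseudocount, no filter, no batch terms, density as a term, other growth windows, single growth sets, single experiments, array weights and left-out libraries.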

Additional observations from a re-analysis of the deposited data

Results flagged for a closer look

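Cycloheximide replicate 1, the only matched cycloheximide culture of the cycloheximide-myriocin experiment, stood apart from the other 9 of its group for 2 members. Its RCN1 value was 49.5, with the next highest at 34.1, and its PMR1 value was 68, with the next lowest at 83.8. In each case the gap to the nearest culture was a larger part of the group's range than Dixon's critical value allows. The test was run on 36 combinations of gene and group, and chance marks about 1 in 20 groups. The cause was not tested. The lowest PMR1 value of the matched rapamycin cultures, 47.1 beside a median of 103, was not among the flagged values.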

How the results depend on the processing

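Of 59 called member results, 28 kept direction and call under every alternative run on them, out of 20 alternatives. The 6 calls against drug-free cultures became 3 with only the drug-free cultures under an OD600 of 0.9 and 3 in the lower growth set alone. The 1 call against the mean of both single drugs became 2 with a pseudocount of 10, 3 with array weights (none of them shared with the main result), 3 without the single-drug myriocin cultures of the myriocin-rapamycin experiment, 2 without cycloheximide replicate 1 and 2 within single experiments. The 1 call between growth sets became 0 with a pseudocount of 10 and 0 with OD600 as a term. Without those myriocin cultures, the difference of myriocin with rapamycin from myriocin turned to 0.22 for PMC1 (adjusted p = 0.621) and 0.19 for CRZ1 (adjusted p = 0.762, limma), from -0.36 and -0.58, neither of them called; within that experiment alone they were -0.65 and -1.07, both called. The cause was not tested. The last 2 omissions and the removal of the mixture culture of lowest dose share were chosen after seeing the data.

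Counts over all features moved by more than 1.5 times. Against drug-free cultures cycloheximide had 174 (37 to 245 over the alternatives), LiCl 517 (165 to 672), myriocin 433 (30 to 569) and rapamycin 357 (102 to 461). Along the gradients they were 267 (93 to 314), 338 (52 to 535), 803 (up to 1120, and down to 3.71% of features in the higher set alone) and 303 (153 to 481) in the same order, and along the dose share of myriocin with rapamycin 944 (399 to 944). No paired analysis was run. The labels give no replicate numbers that groups share, and the numbers used here only name cultures. Many lower-set and higher-set wells of a gradient share a dose but were not paired by it, and growth set enters the fits as a term.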
